A study of Homo sapiens with 12 samples.

Results

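The MAGE family (melanoma antigen genes) was followed in DU145, a human prostate cancer cell line from a brain metastasis, after exposure to decitabine, triptolide or both. Members were the rows of the deposited gene table whose symbol begins with MAGE followed by A, B, C, D, E, F, H or L2, leaving out the MAGI genes and antisense entries. The rule found 36 of 26341 genes, of which 27 were type I members (MAGEA, MAGEB and MAGEC) and 9 were the other members (MAGED, MAGEE, MAGEF, MAGEH and MAGEL2). The rule used symbols and no measured value, although the family was taken up with earlier results of these data known.

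Each of the 4 groups held 3 libraries of total RNA. Ctrl received DMSO as vehicle, TPL received triptolide at 2 nM, DAC received decitabine at 33 nM, and DACTPL received both drugs. Dosing was daily for 3 days and was followed by 17 days without drug, so that RNA was taken after 20 days in every group. The labels disagree on decitabine in DACTPL, with 33 nM among the characteristics but 3 nM under treatment, and the dose of that group is not settled. No label says that the replicates were separate cultures, and p-values then measure only the spread between these libraries, which may be technical.

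MAGE proteins share a MAGE homology domain, through which many of them bind RING ubiquitin ligases and change what those ligases act on. Type I genes lie on the X chromosome, are expressed mainly in germ cells of the testis and in tumours, and are classed as cancer-testis antigens because T cells can recognise peptides from their products. The other members are expressed in many somatic tissues. Decitabine, a nucleoside analogue, enters DNA during replication and holds DNA methyltransferases there, and type I promoters are known for methylation in somatic cells. Triptolide inhibits transcription by binding a helicase of TFIIH.

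Promoter sequences are shown first because type I members differed in whether any reads were counted after decitabine, and their promoters differ in CpG content. RefSeq promoters of 300 bases (250 before and 50 after the listed start, GRCh38.p14) were matched by symbol for 30 of the 36 members. MAGEA1, MAGEA10, MAGEA10-MAGEA5, MAGEA5, MAGEB17 and MAGEH1 had no match. MAGEB2 and MAGEB4 are neighbours on Xp21, and MAGEB2 had the most counts of any type I member after decitabine while MAGEB4 had 0 counts in all 12 libraries. MAGEF1, a single gene on chromosome 3 that was expressed in every library, is shown beside them. CpG dinucleotides are in capitals, and each sequence is written 5′ to 3′ on the gene's strand.
MAGEB2 (chrX:30215313-30215612, plus strand): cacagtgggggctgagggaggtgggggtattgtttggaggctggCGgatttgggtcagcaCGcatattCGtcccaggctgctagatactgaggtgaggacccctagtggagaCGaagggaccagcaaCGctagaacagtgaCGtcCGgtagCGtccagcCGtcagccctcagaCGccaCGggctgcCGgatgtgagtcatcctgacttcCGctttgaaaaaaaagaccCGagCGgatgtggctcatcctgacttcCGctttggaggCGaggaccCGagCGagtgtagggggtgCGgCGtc
MAGEB4 (chrX:30241750-30242049, plus strand): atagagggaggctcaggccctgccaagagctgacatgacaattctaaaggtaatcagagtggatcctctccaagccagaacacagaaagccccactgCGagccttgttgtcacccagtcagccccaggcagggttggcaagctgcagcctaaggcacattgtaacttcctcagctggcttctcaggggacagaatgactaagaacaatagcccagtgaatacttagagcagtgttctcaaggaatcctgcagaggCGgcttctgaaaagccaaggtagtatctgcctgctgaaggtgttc
MAGEF1 (chr3:184712015-184712314, minus strand): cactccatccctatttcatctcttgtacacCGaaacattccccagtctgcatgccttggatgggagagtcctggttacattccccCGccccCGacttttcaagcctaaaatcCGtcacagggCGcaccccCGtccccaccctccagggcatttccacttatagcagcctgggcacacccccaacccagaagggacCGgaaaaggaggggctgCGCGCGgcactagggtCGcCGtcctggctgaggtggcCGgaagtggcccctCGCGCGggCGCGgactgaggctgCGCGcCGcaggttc

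The MAGEB2 promoter held 21 CpG, the MAGEB4 promoter 2 and the MAGEF1 promoter 21. Where RefSeq listed several promoters of a gene, the one with the most CpG is used here. The 13 matched type I members with at least 10 counts over the 6 libraries of DAC and DACTPL, leaving out MAGEB10, which had counts in Ctrl, held 10 to 21 CpG with a median of 17. The 8 matched type I members with fewer counts held 2 to 15 CpG with a median of 6, and the 8 matched other members held 9 to 26 with a median of 16. The median over all 35116 RefSeq promoters was 14, with quartiles of 4 and 28. These are descriptions of the sequences, and promoter methylation was not analysed here.

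A run of 7 letters, GGATGTG, was noticed while the type I promoters were being read and was then searched on both strands, so its counts are no independent evidence. It was present in 13 of the 13 members with at least 10 counts, in 2 of the 8 type I members with fewer (MAGEA4 and MAGEB16), in neither MAGEB10 nor any of the 8 other members, and in 4.29% of all promoters. The promoters of MAGEA3 and MAGEA6, of MAGEA2 and MAGEA2B, and of MAGEA9 and MAGEA9B are identical over all 300 bases, so these 13 members carry 10 distinct promoters. The windows of 34 bases below show the run in capitals in 6 of the members with at least 10 counts and in MAGEA4 and MAGEB16. The letters after the run are alike in several MAGEA genes, and the MAGEB2 and MAGEC2 windows differ from them. RefSeq lists several MAGEA4 promoters, and the window shown is from the one with 10 CpG. In the windows of its other promoters, the letters after the run are closer to those of MAGEA3.
MAGEB2 (chrX:30215488-30215521, plus strand): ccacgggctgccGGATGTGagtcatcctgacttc
MAGEA3 (chrX:152698696-152698729, plus strand): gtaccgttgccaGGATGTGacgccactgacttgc
MAGEA2 (chrX:152753881-152753914, minus strand): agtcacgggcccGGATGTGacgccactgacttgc
MAGEA9 (chrX:149781900-149781933, plus strand): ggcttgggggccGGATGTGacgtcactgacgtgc
MAGEA11 (chrX:149712035-149712068, plus strand): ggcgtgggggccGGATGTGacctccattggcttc
MAGEC2 (chrX:142205275-142205308, minus strand): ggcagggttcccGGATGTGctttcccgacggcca
MAGEA4 (chrX:151912442-151912475, plus strand): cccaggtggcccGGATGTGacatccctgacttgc
MAGEB16 (chrX:35798290-35798323, plus strand): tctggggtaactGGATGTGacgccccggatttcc

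Other motifs searched on both strands were the ETS core with a CpG (CCGGAA), an Sp1 box (GGCGGG) and an E-box (CACGTG), held by 17.2%, 45.0% and 7.26% of all promoters. Taking every listed promoter of a gene, the ETS core was present in MAGEA3 and MAGEA6, in MAGEB6 and MAGEB16, and in MAGEF1, MAGED1 and MAGED2. No matched MAGE promoter held the E-box. A match is a description of letters and not of a bound site. In the plot of CpG number against counts, A4, B16 and B6 lie at 0 or 1 count with as many CpG as several members that were counted.

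**Figure D1:**
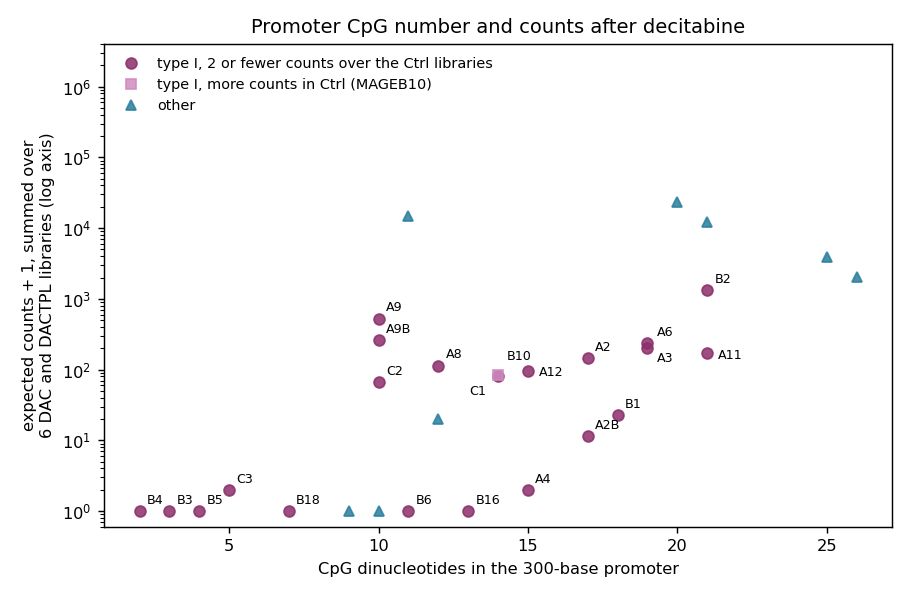
CpG dinucleotides in each matched 300-base promoter (horizontal axis) against expected counts plus 1 summed over the 6 DAC and DACTPL libraries (vertical log axis), with 1 point per gene and type I points named without the MAGE prefix. MAGEB2, with 21 CpG, has the most counts of the type I points, and the members with 2 to 7 CpG had 0 or 1 count.

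Total expected counts per library ranged from 26.4 to 47.0 M. A gene with 0 counts in a library has an upper limit of 3 counts, which is 0.0627 to 0.1004 CPM (counts scaled to a common library size) in Ctrl and 0.0986 to 0.116 in TPL. These limits cover counting error only. Of the markers that fit the line, epithelial genes were abundant, with summed levels of 2042 to 2763 CPM. Of 26341 genes, 15890 passed the filter on low counts and were tested, with a gene called at an adjusted p below 0.05 (edgeR quasi-likelihood, Benjamini-Hochberg over all tested genes).

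Without decitabine few type I genes were counted. In each Ctrl library and each TPL library 1 of the 27 type I members had at least 10 counts. In the DAC libraries 12 of 27 reached 10 counts, and in DACTPL 12, 13 and 11 did. Of the other members, 6 of 9 were at or above 10 counts in every library of all 4 groups. The summed type I level was 0.926, 1.08 and 0.887 CPM (Ctrl), 0.631, 0.703 and 0.986 (TPL), 17.8, 18.8 and 13.3 (DAC), and 18.0, 18.3 and 15.3 (DACTPL). All 6 decitabine libraries lay above all 6 libraries without it, and DAC and DACTPL overlapped. The summed level of the other members was 225, 222 and 273 CPM (Ctrl) and 235, 234 and 274 CPM (DAC), which overlapped, and 264, 269 and 334 CPM (TPL) and 272, 272 and 290 CPM (DACTPL). In bulk RNA, more cells expressing a gene and more RNA per cell cannot be told apart.

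**Figure D2:**
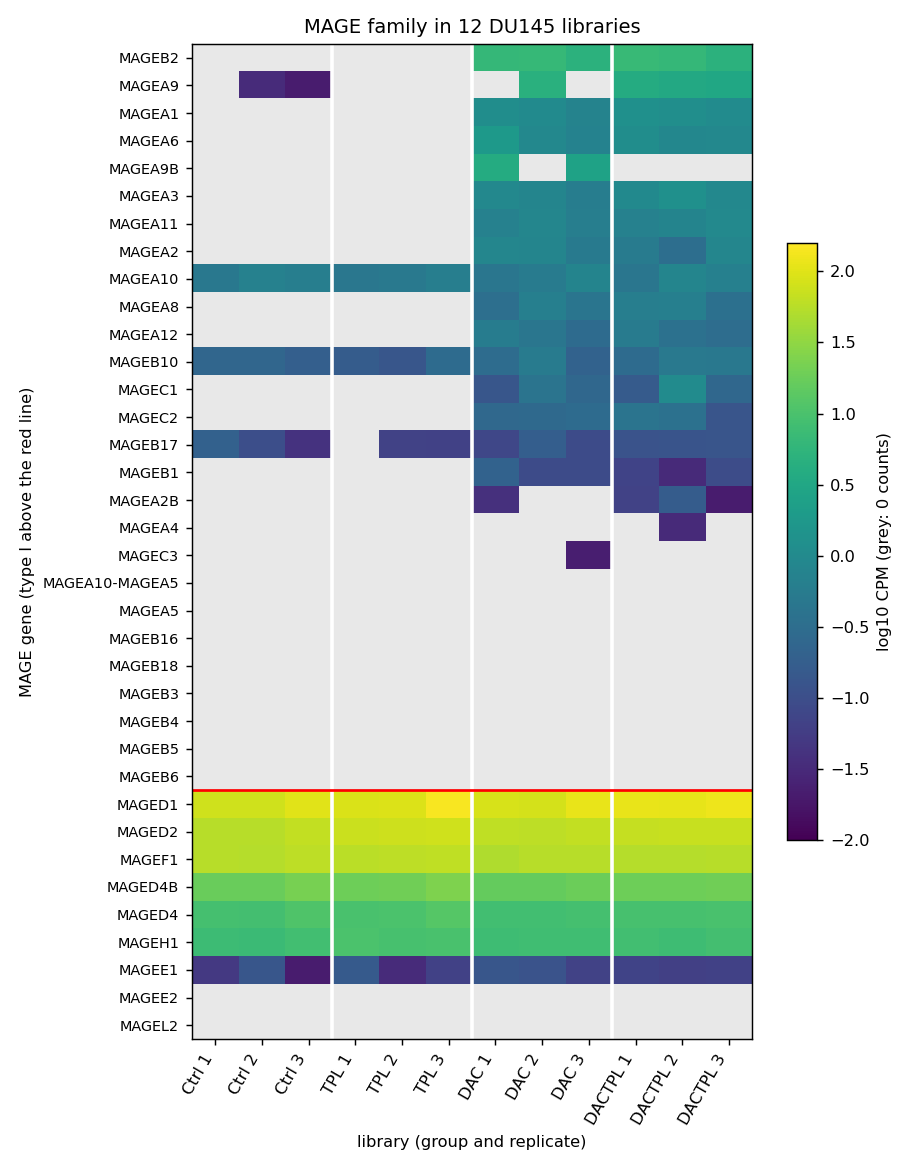
Level of each of the 36 MAGE genes (rows, type I above the red line, each block ordered by its mean over the decitabine libraries) in each of the 12 libraries (columns, grouped by treatment), coloured by log10 CPM with 0 counts in grey. Type I rows are grey in Ctrl and TPL except MAGEA10, MAGEB10, MAGEB17 and single counts of MAGEA9. Many of them fill in the DAC and DACTPL columns, with MAGEA2B, MAGEA9 and MAGEA9B filled in only some of these libraries. MAGEA4 and MAGEC3 are filled in 1 library each, and MAGEA10-MAGEA5, MAGEA5, MAGEB3, MAGEB4, MAGEB5, MAGEB6, MAGEB16 and MAGEB18 stay grey. The rows of MAGED1, MAGED2, MAGEF1, MAGED4, MAGED4B and MAGEH1 are filled throughout.

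In DAC against Ctrl 8 type I genes rose: MAGEA1, MAGEA2, MAGEA3, MAGEA6, MAGEA8, MAGEA11, MAGEA12 and MAGEB2. Of the 27 type I members 11 were tested, and of the 9 other members 6 were. Against these 8 of 11 tested type I members, 0 of 6 tested other members were called in either direction with edgeR. Of these 6, 0 had an unadjusted p below 0.05, and DESeq2 called 0. For comparison, 6.27% of all tested genes were called higher in this comparison and 9.86% in either direction. Each of the 8 had 0 counts in all 6 Ctrl and TPL libraries. They passed the filter through the decitabine groups alone and so had to differ, which is why their number is a description. The same holds for the adjusted p-values given below for these genes and for summed copies in DAC against Ctrl. Those p-values are no independent evidence of a rise. The lower bounds of their rise, taken against 3 counts per library, ran from 5.55-fold for MAGEA12 to 74.6-fold for MAGEB2.

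MAGEB2, whose product limits stress granule assembly by lowering G3BP translation, had the highest counts. Its level was 6.24, 6.60 and 4.98 CPM in DAC and 6.70, 6.29 and 5.02 CPM in DACTPL, with 0 in every Ctrl and TPL library. The 2 decitabine groups overlapped and both stood clear of the others. It was at least 74.6-fold higher in DAC than in Ctrl (edgeR adjusted p = 1.30e-06) and at least 75.4-fold higher in DACTPL. MAGEB2 alone made up 38.4 ± 2.05% (SD, n = 3) of the type I counts other than those of MAGEA10, MAGEB10 and MAGEB17 in DAC and 37.4 ± 1.68% (SD, n = 3) in DACTPL.

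MAGEA3 and MAGEA6, which with the ligase TRIM28 direct AMPK to degradation, are near-copies, and 34.9% of the 100-base stretches of MAGEA3 transcripts also occur in MAGEA6. Reads could therefore be divided between them. MAGEA3 stood at 0.924, 0.807 and 0.602 CPM in DAC and 0.982, 1.29 and 0.926 CPM in DACTPL. MAGEA6 stood at 1.79, 0.904 and 0.738 CPM in DAC and 1.14, 0.871 and 0.930 CPM in DACTPL. Both were at 0 in Ctrl and TPL. For MAGEA6 the decitabine groups overlapped, and for MAGEA3 the lowest DACTPL library lay just above the highest DAC library, a difference that was not called (edgeR adjusted p = 0.386). Summed, the pair was at least 24.1-fold higher in DAC than in Ctrl (edgeR adjusted p = 7.73e-05) and at least 25.7-fold higher in DACTPL.

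MAGEA1, the first of the family found as a T cell target in melanoma, reached 1.13, 1.02 and 0.750 CPM in DAC and 1.31, 1.18 and 1.06 CPM in DACTPL. It was at least 12.2-fold higher in DAC than in Ctrl (edgeR adjusted p = 6.23e-05). MAGEA2, which binds TRIM28 and affects p53, reached 0.857, 0.811 and 0.545 CPM in DAC and 0.563, 0.330 and 0.843 CPM in DACTPL. For both genes DAC and DACTPL overlapped and no library without decitabine had a count. MAGEA2 was at least 9.26-fold higher in DAC than in Ctrl (edgeR adjusted p = 0.000719), and its near-identical copy MAGEA2B, with 89.4% of the stretches of MAGEA2 shared, held 0 to 5.39 counts per decitabine library.

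MAGEA11 reached 0.711, 0.841 and 0.636 CPM in DAC and 0.700, 0.778 and 0.960 CPM in DACTPL. It was at least 9.16-fold higher in DAC than in Ctrl (edgeR adjusted p = 0.000102). MAGEA8, a tumour antigen of the same cluster, reached 0.342, 0.660 and 0.432 CPM in DAC and 0.630, 0.654 and 0.352 CPM in DACTPL. In both genes every decitabine library held counts and no other library did. MAGEA8 was at least 6.004-fold higher in DAC than in Ctrl (edgeR adjusted p = 0.00147), and MAGEA12, with 10 to 24 counts per decitabine library, was at least 5.55-fold higher (edgeR adjusted p = 0.00151).

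MAGEA9 and MAGEA9B were counted in an all-or-none way that a test on either gene alone cannot read. The counts listed for MAGEA9 were 0, 153 and 0 (DAC) and 164, 110 and 98 (DACTPL), and those for MAGEA9B were 143, 0 and 114 (DAC) and 0 in all of DACTPL. In each decitabine library 1 of the 2 copies held all the counts. The genes share 89.7% of the 100-base stretches of MAGEA9, and their promoters are identical. The deposited TPM values divided the signal otherwise, with 1.12, 1.74 and 0.71 TPM for MAGEA9 and 1.57, 1.69 and 1.27 TPM for MAGEA9B in DAC.

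Summed, the copies stood at 3.77, 4.59 and 2.59 CPM (DAC), 3.82, 3.42 and 3.14 CPM (DACTPL), 0, 0.0335 and 0.0209 CPM (Ctrl) and 0 (TPL). The decitabine libraries overlapped each other and lay above every library without the drug. The sum was 209-fold higher in DAC than in Ctrl, with a 95% counting interval of 57.4 to 1728, on 2 counts in Ctrl (edgeR adjusted p = 1.89e-06). MAGEA9 alone was not called (adjusted p = 0.203, edgeR), and leaving out DAC replicate 2, the only DAC library with MAGEA9 counts, made it called higher in DACTPL than in DAC (edgeR adjusted p = 0.000769). The summed copies had no such difference, at -0.06 (95% interval -0.52 to 0.40) in log2.

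**Figure D3:**
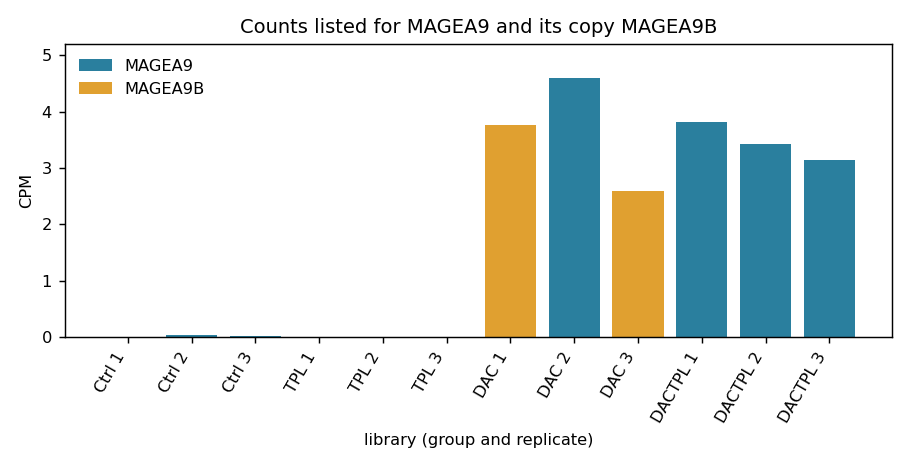
CPM listed for MAGEA9 (blue) and its near-identical copy MAGEA9B (orange), stacked, in each of the 12 libraries. Which copy holds the counts changes between DAC libraries, while the stacked height stays between 2.59 and 4.59 CPM in all 6 decitabine libraries.

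Several type I members were counted after decitabine at levels too low to pass the filter. MAGEC2, a TRIM28 partner, had 10, 9 and 13 counts in DAC and 18, 12 and 4 in DACTPL. MAGEC1 had 5, 14 and 11 counts in DAC and 7, 34 and 8 in DACTPL, so that replicate 2 of DACTPL held most of that group's counts. MAGEB1, next to MAGEB4 on Xp21, had 8, 3 and 4 counts in DAC and 3, 1 and 3 in DACTPL. All 3 genes had 0 counts in Ctrl and TPL. MAGEA4 had 1 count and MAGEC3 had 1 count in all 12 libraries. MAGEA10-MAGEA5, MAGEA5, MAGEB3, MAGEB4, MAGEB5, MAGEB6, MAGEB16 and MAGEB18 had 0.

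Of the other type I members with counts in Ctrl, MAGEA10 and MAGEB10 were tested and not called. MAGEA10 was at 0.480, 0.703 and 0.636 CPM (Ctrl), 0.465, 0.504 and 0.623 (TPL), 0.446, 0.559 and 0.776 (DAC) and 0.444, 0.802 and 0.667 (DACTPL). All 4 groups overlapped, and DAC minus Ctrl was 0.01 in log2 (95% interval -0.60 to 0.61, edgeR adjusted p = 0.990). MAGEB10 averaged 0.225 ± 0.0319 CPM (Ctrl), 0.199 ± 0.0870 (TPL), 0.358 ± 0.180 (DAC) and 0.425 ± 0.115 (DACTPL) (SD, n = 3) (edgeR adjusted p = 0.344 for DAC against Ctrl and 0.165 for DACTPL against Ctrl, with an unadjusted p of 0.0447 in the latter). MAGEB17 had 0 to 8 counts per library and was not tested. That MAGEA10 and the 8 raised genes respond differently was not tested, since the latter have no counts in Ctrl.

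Per length, the order of type I levels in DAC began with MAGEB2 at 4.88 ± 0.648 TPM and the summed MAGEA9 and MAGEA9B at 2.70 ± 0.725 TPM (SD, n = 3). MAGEA3 and MAGEA6 together followed at 1.52 ± 0.498 TPM. Every DAC library of MAGEB2 lay above every one of the summed MAGEA9 pair, which overlapped MAGEA3 and MAGEA6. The summed MAGEA2 and MAGEA2B at 0.827 ± 0.136, MAGEA1 at 0.760 ± 0.132 and MAGEA11 at 0.540 ± 0.0794 TPM were next, and neighbours among these 3 lay within their spread. MAGED1 in the same libraries was at 45.6 ± 8.98 TPM. The deposited TPM table lists values above 0 where no count was listed, up to 0.35 for MAGEA2 in the groups without decitabine and up to 1.69 for MAGEA9B in DAC, so low TPM levels are less certain than the order at the top.

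With triptolide alone, 11 of the 27 type I members were tested against Ctrl. With edgeR 0 were called and 0 had an unadjusted p below 0.05, and DESeq2 called 0. Of all tested genes, 2.47% were called in either direction with edgeR. The 8 genes that rose in DAC had 0 counts in all Ctrl and TPL libraries, so they could not be called here. MAGEA9 had 2 counts over the Ctrl libraries and 0 in TPL, too few for a fall to be seen. The comparison could therefore be read only for MAGEA10 and MAGEB10. MAGEA10, at -0.17 in log2 (95% interval -0.82 to 0.47), was the type I member with the most counts.

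No MAGE gene passed the test when triptolide was added to decitabine. In DACTPL against Ctrl the same 8 type I genes rose as in DAC, where 8.64% of all tested genes were called higher, and the same 8 against TPL, where 6.93% were. With 0 counts in Ctrl and TPL, these 8 had to differ in both comparisons, and their calls there are again descriptions. DAC and DACTPL share Ctrl as their control, so the direct comparison of DACTPL with DAC is the one to read. There, 0 of the 11 tested type I members and 0 of the 6 tested other members were called with edgeR, against 0.0315% of all tested genes. At an unadjusted p below 0.05 there were 0 type I members and 1 other member (MAGED2), and DESeq2 called 0 of either.

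The intervals give what these libraries could show. DACTPL minus DAC was 0.02 in log2 for MAGEB2 (95% interval -0.33 to 0.37), 0.30 for MAGEA1 (-0.21 to 0.82) and 0.45 for MAGEA3 (-0.11 to 1.002). It was -0.35 for MAGEA2 (-1.13 to 0.43), -0.20 for MAGEA6 (-0.98 to 0.58) and -0.03 for MAGEA12 (-0.84 to 0.78). The interval of MAGEB2 is the narrowest among the 8 genes. The intervals of the other 7 each span more than 1 log2 unit, and differences that lie within them are not excluded.

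**Figure D4:**
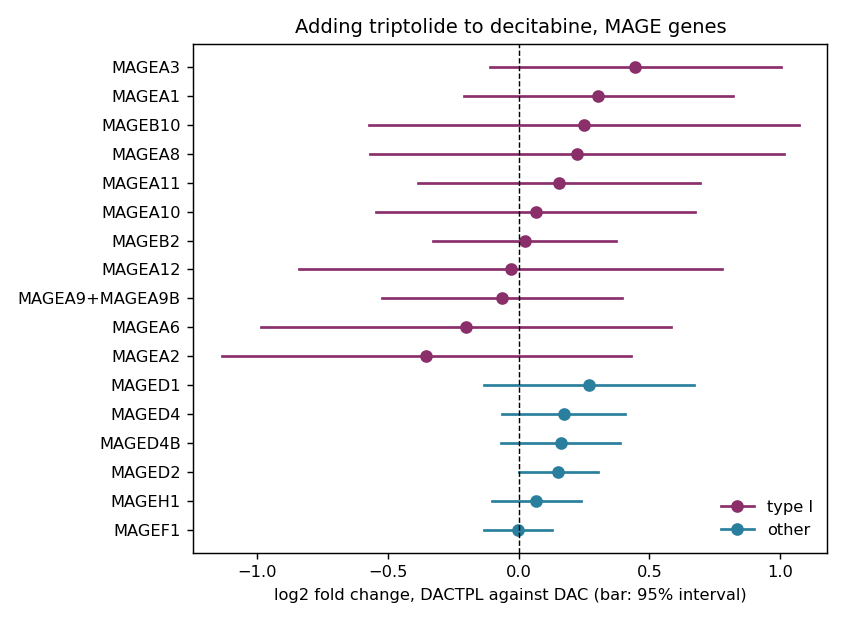
Difference between DACTPL and DAC in log2 fold change (points) with 95% intervals (bars) for the tested MAGE genes, type I in purple and others in blue, with MAGEA9 and MAGEA9B summed. All type I bars cross 0, and of the others the bar of MAGED2 starts just above 0 (0.15, from 0.00 to 0.30).

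The 6 other members that were expressed in every library are MAGED1, MAGED2, MAGEH1, MAGEF1, MAGED4 and MAGED4B. MAGED1, which binds the neurotrophin receptor NGFR, was at 78.5, 78.3 and 104 CPM (Ctrl), 93.2, 95.6 and 145 (TPL), 89.0, 85.8 and 116 (DAC) and 114, 111 and 126 (DACTPL). Replicate 3 was the highest library in all 4 groups. DAC minus Ctrl was 0.16 in log2 (95% interval -0.25 to 0.56, edgeR adjusted p = 0.639) and DACTPL minus Ctrl was 0.42 (0.02 to 0.83, edgeR adjusted p = 0.156).

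MAGED2, which is needed for salt transport in the kidney, was at 56.6, 55.4 and 66.0 CPM (Ctrl), 72.6, 75.2 and 79.4 (TPL), 62.4, 60.2 and 65.9 (DAC) and 67.1, 71.6 and 70.7 (DACTPL). All TPL and all DACTPL libraries lay above all Ctrl libraries, and DAC overlapped Ctrl. On counts, TPL minus Ctrl was 0.35 in log2 (SE 0.0700, edgeR adjusted p = 0.0252), and on log2(TPM + 1) it was -0.02 and not called. DACTPL minus Ctrl was 0.23 (SE 0.0699, edgeR adjusted p = 0.0443), and it was 0.07 and not called on log2(TPM + 1).

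MAGEH1 was at 7.66, 7.33 and 8.34 CPM (Ctrl), 10.2, 9.37 and 9.95 (TPL), 7.88, 8.05 and 8.02 (DAC) and 8.45, 7.75 and 8.90 (DACTPL). The TPL libraries stood above all others. On counts, TPL minus Ctrl was 0.33 in log2 (SE 0.0787, edgeR adjusted p = 0.0462), and it was -0.03 and not called on log2(TPM + 1). MAGED2 and MAGEH1 were the 2 of 6 tested other members called in TPL against Ctrl, where 1.68% of all tested genes were called higher.

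These rises depend on the scale and on single libraries. The TPM scale moved the median of all tested genes in TPL against Ctrl by -0.29 in log2, and relative to that median MAGED2 and MAGEH1 stood above it on both scales. With TPM rescaled to one median per library, a setting chosen after seeing the data, they were 0.36 and 0.31 (limma adjusted p = 0.0339 and 0.0485). Leaving out Ctrl replicate 1 or 2, or TPL replicate 1 or 2, took the adjusted p of MAGED2 to between 0.0702 and 0.154. That of MAGEH1 was above 0.05 without 10 of the 12 libraries, DACTPL replicate 2 and Ctrl replicate 3 being the exceptions, and reached 0.208. For MAGED2 in DACTPL against Ctrl, the adjusted p was above 0.05 without 9 of the 12 libraries, Ctrl, TPL and DAC replicate 3 being the exceptions, and reached 0.189.

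The libraries also differed in how gene levels followed gene length. Across 13770 genes, the Spearman correlation of a gene's deviation with its relative length was -0.45 and -0.44 in TPL replicates 1 and 2, -0.21 and -0.32 in DAC replicates 1 and 2, and -0.19 in DACTPL replicate 1. It was between 0.13 and 0.33 in the other 7 libraries, all Ctrl libraries included. Genes are not independent replicates, and the part of this in the MAGED2 and MAGEH1 values was not tested.

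MAGEF1, which directs the ligase NSMCE1 to the iron-sulphur assembly factor MMS19, was at 55.8, 54.6 and 60.8 CPM (Ctrl), 58.9, 59.7 and 63.2 (TPL), 50.9, 55.5 and 57.0 (DAC) and 54.4, 53.3 and 55.3 (DACTPL). The DAC and DACTPL libraries overlapped those of Ctrl. DAC minus Ctrl was -0.07 in log2 (95% interval -0.20 to 0.06, edgeR adjusted p = 0.521). TPL minus Ctrl was 0.09 (-0.04 to 0.22, edgeR adjusted p = 0.466) on counts and -0.28 on log2(TPM + 1), where limma called it lower (adjusted p = 0.00759). On that scale the median of all tested genes was -0.29, and limma called 10831 of 15890 genes. The call therefore does not set MAGEF1 apart from other genes.

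MAGED4 and MAGED4B share 98.8% of the 100-base stretches of MAGED4, so their division is uncertain. MAGED4 was at 9.03, 8.79 and 11.2 CPM (Ctrl), 9.85, 10.1 and 12.4 (TPL), 8.34, 8.41 and 9.08 (DAC) and 9.60, 9.58 and 9.91 (DACTPL). MAGED4B was at 17.4, 17.3 and 21.9 CPM (Ctrl), 18.9, 19.5 and 24.1 (TPL), 16.3, 16.2 and 17.8 (DAC) and 18.6, 18.5 and 19.2 (DACTPL). In both, replicate 3 was the highest library of every group. The summed pair differed by -0.17 in log2 between DAC and Ctrl (95% interval -0.40 to 0.05, edgeR adjusted p = 0.310). MAGEE1 had 1 to 5 counts per library, and MAGEE2 and MAGEL2, the last a partner of TRIM27 in endosome recycling, had 0 in all 12.

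**Figure D5:**
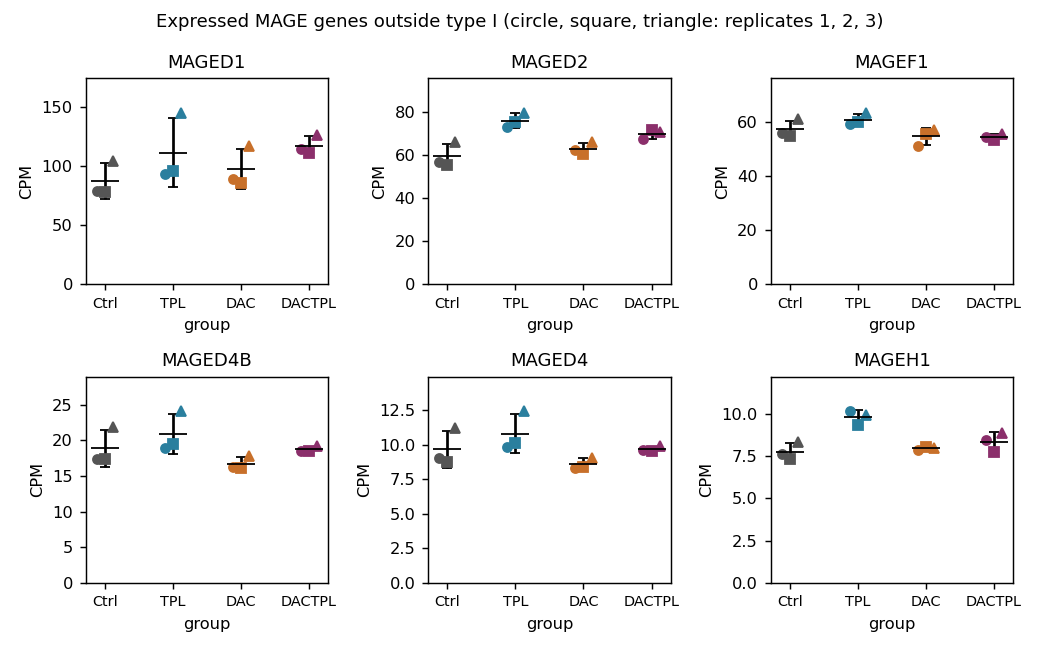
CPM of the 6 expressed MAGE genes outside type I in each library (circle, square and triangle for replicates 1, 2 and 3), with the group mean and SD (bars, n = 3), on axes that start at 0. The TPL libraries of MAGED2 and MAGEH1 stand above the Ctrl libraries, and replicate 3 is the highest MAGED1 library in each group.

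The difference between the response to triptolide with and without decitabine was -0.20 in log2 for MAGED2 (SE 0.0989, edgeR adjusted p = 0.347) and -0.27 for MAGEH1 (SE 0.111, edgeR adjusted p = 0.271). For the 8 raised type I genes this difference cannot be estimated, because neither Ctrl nor TPL held a count.

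The authors' deposited table, made with DESeq2 per the submitters' processing notes, called 10 type I members higher in DAC against Ctrl, the 8 above with MAGEB1 and MAGEC2, where 5.87% of the genes it gave an adjusted p were called higher. In the authors' deposited table for DACTPL against Ctrl, 10 were called against 7.77% of its genes, the 8 with MAGEC1 and MAGEC2. For DACTPL against DAC and for TPL against Ctrl the authors' deposited table called 0 type I members, against 0.595% and 6.04% of its genes in either direction, but it gave an adjusted p for only 1 type I member in each. Of the other members, the authors' deposited table called MAGED2 and MAGEH1 in TPL against Ctrl, MAGED2 in DACTPL against Ctrl and 0 in DAC against Ctrl, all higher.

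All 21 listed ligases, complex members and substrates that work with MAGE proteins were tested, and 1 rose in DAC against Ctrl, a share no higher than the 6.27% of all tested genes called higher there. That gene was TRIM28, the partner of MAGEA2, MAGEA3, MAGEA6 and MAGEC2, at 192, 187 and 195 CPM in Ctrl and 209, 215 and 216 in DAC (log2 difference 0.15, SE 0.0448, edgeR adjusted p = 0.0469). NSMCE2, a SUMO ligase of the SMC5/6 complex, rose in TPL against Ctrl by 0.42 in log2 (SE 0.0907, edgeR adjusted p = 0.0332), as the only one of the 21 where 1.68% of all tested genes were called higher, and 0 of the 21 were called in the other 3 comparisons. The median log2 difference of the list was -0.00 in DAC against Ctrl, where that of all tested genes was 0.01.

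Of relatives with a MAGE homology domain outside the symbol rule, 2 were tested, and TRO was not called. NDNL2, another SMC5/6 subunit, stood at 36.5, 36.9 and 36.3 CPM (Ctrl), 41.7, 43.2 and 39.0 (TPL) and 36.1, 35.0 and 33.4 (DACTPL). It was lower in DACTPL than in TPL by 0.25 in log2 (SE 0.0542, edgeR adjusted p = 0.0115), where 1671 of 15890 tested genes were called in either direction. Neither TPL nor DACTPL was called against Ctrl for this gene. NDN, an imprinted relative, had 0 counts in every library.

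Genes beside the MAGE clusters on Xq28 and Xp21 were mixed. Of 20 listed, 19 were in the table and 9 were tested, of which 2 rose in DAC against Ctrl, where 6.27% of all tested genes were called higher. NR0B1, a nuclear receptor gene beside the MAGEB genes, rose from 0.844 ± 0.0896 CPM in Ctrl to 2.06 ± 0.424 in DAC (SD, n = 3, log2 difference 1.29, SE 0.224, edgeR adjusted p = 0.00296). PNMA5 also rose, with 0 counts in Ctrl and TPL, 23, 13 and 16 (DAC) and 10, 11 and 8 (DACTPL). PNMA5 passed the filter through the decitabine groups alone and so had to differ, and its call is a description. CSAG1 and CSAG3, which lie among the MAGEA genes, had 0 counts without decitabine and 1 to 13 per library with it, and were not tested. The other 7 tested neighbours were not called in DAC against Ctrl, and ZNF185 fell by 0.26 in log2 in DACTPL against Ctrl (edgeR adjusted p = 0.0199).

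Some markers of each cell type listed were called after decitabine. In DAC against Ctrl 6.27% of all tested genes were called higher and 9.86% in either direction. In DACTPL against Ctrl 8.64% were called higher. Tested were 2 germ cell, 3 stromal, 3 blood, 2 prostate luminal and 5 epithelial markers. Of 6 germ cell markers, DAZL had 0 counts in Ctrl and TPL and 12 to 22 per decitabine library and rose in DAC. DAZL passed the filter through the decitabine groups alone and so had to differ. SYCP3 rose in DACTPL against Ctrl. The summed level of the list was 0.0758 to 0.335 CPM (Ctrl) and 0.659 to 1.11 (DAC). TNP1, PRM1 and PRM2, which mark late germ cells, were at 0 throughout. Of 6 stromal markers COL1A2 and PDGFRB rose in DAC against Ctrl, with summed levels of 8.32 to 10.9 CPM (Ctrl) and 8.17 to 12.4 (DAC). Most of these sums was COL1A1, which was not called, at a mean of 8.65 CPM in Ctrl and 8.38 in DAC. Of 6 blood markers PTPRC rose and CD68 fell, with summed levels of 41.8 to 46.8 CPM in Ctrl and 31.1 to 34.8 in DAC, and HBB was at 0 throughout. Most of these sums was CD68, at a mean of 38.8 CPM in Ctrl and 27.9 in DAC. Of 5 prostate luminal markers TMPRSS2 fell in DAC against Ctrl, with summed levels of 16.8 to 17.8 CPM (Ctrl) and 14.6 to 17.4 (DAC). Of 5 epithelial markers KRT8 rose and EPCAM fell. The part of any of these in the type I values was not tested.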

How the data were processed

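RNA of DU145 cells was sequenced in 12 libraries, 3 in each of 4 groups, with a stranded kit and paired 100-base reads, per the labels' protocols. Per the submitters' processing notes, the authors used RSEM 1.2.09 and hg19 for the deposited expected counts and TPM per gene. Expected counts divide reads that fit several genes. For the aligner and annotation the sources used here give nothing. Comparison tables deposited by the authors hold, per the file headers, a log2 fold change, a test score (the DESeq2 statistic, R 4.0.4) and a p-value per gene. A table of z-scores was not used here.

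Counts were rounded to whole numbers and tested with edgeR 4.0.16 in R 4.3.3 (TMM, filterByExpr by group, robust quasi-likelihood fit over all 12 libraries, Benjamini-Hochberg over 15890 genes, threshold 0.05, two-sided). CPM use TMM-scaled library sizes. The biological coefficient of variation was 9.03%. Depth was 26.4 to 47.0 M expected counts. Folds against groups at 0 use 3 counts per library. SE and intervals are unshrunken, at 95%. Alternatives were DESeq2 1.42.0, limma 3.58.1 on log2(TPM + 1) and log2(TPM + 0.1), other filters, summed copies, a replicate block and each library left out. Fits were first tested on simulated counts.

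Members and lists were chosen with earlier results of these data known. Full values are given for type I genes called after decitabine with at least 0.5 CPM, for tested other members and for type I members with at least 10 counts in every Ctrl library. From each companion list the called genes are named. RefSeq promoters (GRCh38.p14) were matched by symbol, another assembly than the counts' build, and shared stretches come from GENCODE transcripts.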

Additional observations from a re-analysis of the deposited data

How the results depend on the processing

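The calls of type I genes kept their number within 1.5 times in most settings. A stricter filter (1 CPM in every library of a group) left 2 called in DAC vs Ctrl, 2 in DACTPL vs Ctrl and 2 in DACTPL vs TPL, since fewer members were tested. Leaving out 1 library at a time gave 8 to 10 in each of these 3 comparisons, 0 in TPL vs Ctrl and 0 to 1 in DACTPL vs DAC. For the other members it gave 0 to 1 in DACTPL vs Ctrl and 0 to 2 in TPL vs Ctrl. The other members called in DACTPL vs Ctrl numbered 1, and 0 with DESeq2 size factors, without a filter, with the stricter filter, on rescaled TPM or with only the 2 groups compared. In TPL vs Ctrl they numbered 2, and 1 without a filter, 1 on log2(TPM + 1), 1 on log2(TPM + 0.1) (on both TPM scales MAGEF1, lower, and neither MAGED2 nor MAGEH1) and 0 with only the 2 groups compared. In DACTPL vs Ctrl both TPM scales also called MAGEF1 lower (limma adjusted p = 0.0485 and 0.0482) in place of MAGED2. Of 15890 genes, these 2 scales called 10831 and 10907 in TPL vs Ctrl and 4764 and 4643 in DACTPL vs Ctrl, in either direction. In DACTPL vs TPL the other members called numbered 0, and 1 on rescaled TPM. With a replicate block the other members called were 2 in DACTPL vs Ctrl and 1 in DACTPL vs TPL, and MAGED1 was called in DACTPL vs Ctrl and TPL vs Ctrl. Same-numbered libraries did not all deviate together (correlations -0.19 to 0.52), so the numbers were not taken to pair samples. With replicates 1 and 2 alone, chosen after seeing the data, the other members called were 2 in DACTPL vs Ctrl, 1 in DACTPL vs DAC and 2 in DACTPL vs TPL. In TPL vs Ctrl, the log2 differences of all 6 tested other members turned on log2(TPM + 1) and log2(TPM + 0.1): MAGED1 to -0.0414 and -0.0429, MAGED4 to -0.12 and -0.14, MAGED4B to -0.26 and -0.29, MAGED2 to -0.0199 and -0.0203, MAGEF1 to -0.28 and -0.29, MAGEH1 to -0.0306 and -0.0344. The cause of these changes was not tested. Rescaled TPM replaced a first form that subtracted each library's median after the log, which by its construction shifted genes at 0. At these depths 0 counts allows up to 3 per library.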
